A study of Mus musculus with 8 samples.

Results

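The genes described here build, break down and carry asparagine, serine and glutamine in brown adipose tissue (BAT), the heat-producing fat depot of rodents. They are 9 of the 31053 genes in the count table, taken by symbol: the asparaginase gene Aspg, the asparagine synthetase gene Asns, the serine synthesis genes Phgdh, Psat1 and Psph, the mitochondrial one-carbon genes Shmt2 and Mthfd2, the glutamine synthetase gene Glul, and the amino acid transporter gene Slc7a5. They were chosen by symbol with the measured db/db against WT differences already known, so their values in that contrast are given as a description, with no test. Bulk RNA-seq was done on BAT of 4 WT and 4 db/db mice, all male, 8 weeks old and given as strain C57BL6/J in the labels, with tissue taken after a fast. The db/db mice are homozygous for a mutation that disables the leptin receptor, eat in excess and become obese. The study's methods name their strain as B6.BKS(D)-Leprdb/J, while its list of materials gives a different db/db stock, so the background of the db/db mice is not settled by the sources used here. The sources used here differ on whether the WT mice came from the same supplier as the db/db mice, so a difference of supplier cannot be told apart from genotype. The labels name the tissue as BAT and also give stromal vascular fraction as the cell type, a fraction from which floating adipocytes are normally lost. Adipocyte transcripts were nevertheless abundant: the summed level of 6 adipocyte markers, Adipoq and Plin1 among them, was 8861 to 15741 CPM (counts scaled to a common library total) in WT and 14523 to 19502 CPM in db/db libraries, and none of the 6 was at 0 in all libraries.

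Asparagine is made from aspartate with the nitrogen of glutamine by asparagine synthetase and is split back into aspartate and ammonia by asparaginase. Serine is made from a glycolytic intermediate in consecutive steps by Phgdh, Psat1 and Psph, and its side-chain carbon is passed to folate by the serine hydroxymethyltransferases, of which Shmt2 acts in mitochondria, where Mthfd2 processes the folate-bound carbon further. Glutamine synthetase joins ammonia to glutamate, and in many cells Asns, the serine synthesis genes and Slc7a5 are induced together by the transcription factor ATF4 when amino acids are short or the endoplasmic reticulum is stressed.

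Because Asns is a classical target of that response, the promoters of the members were searched for the core of the element that ATF4 and C/EBP proteins bind, TGATGNAA, on both strands, from 250 bases before to 50 bases after the annotated start. RefSeq promoters (GRCm38.p6) were given for 8 of the 9 members, Psat1 with 2 starts, and 1 of these 9 promoters held a match, that of Asns. Of all 32851 promoters of the same length, 3.97% held one. The match of Asns begins 23 bases before the RefSeq start. In GENCODE M21 the gene starts further upstream, at 7693254, so that the match lies inside it. The match is shown in capitals with 11 bases on either side (chr6:7693214-7693243, minus strand).
Asns: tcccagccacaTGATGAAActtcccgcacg

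The promoters of the 2 members that were lower in every db/db library are shown next for their unlike base composition. The 120 bases of RefSeq sequence (GRCm38.p6, plus strand) that end just before the first start annotated in GENCODE M21 or RefSeq, which is that of GENCODE for Aspg and that of RefSeq for Glul, lie at chr12:112106559-112106678 for Aspg and chr1:153899809-153899928 for Glul, with CpG dinucleotides in capitals.
Aspg: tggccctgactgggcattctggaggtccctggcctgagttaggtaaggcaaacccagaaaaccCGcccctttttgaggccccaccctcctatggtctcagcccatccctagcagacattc
Glul: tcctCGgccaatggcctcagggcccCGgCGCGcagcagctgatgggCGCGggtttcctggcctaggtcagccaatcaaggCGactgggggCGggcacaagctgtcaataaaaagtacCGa
Aspg has 1 CpG in this stretch and Glul 9. Over the full promoter windows Aspg had 3 CpG, fewer than any other member promoter, where the others had from 11 to 30 and the median of all promoters was 7. No TGATGNAA match was found in the windows of Aspg and Glul, which says only that these letters are not there.

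Aspg encodes an asparaginase, the enzyme of asparagine breakdown. Its level was 82.1, 90.7, 74.4 and 97.2 CPM in WT replicates 1 to 4 and 5.11, 2.55, 0.887 and 4.84 CPM in db/db replicates 1 to 4. The groups were far apart: the lowest WT library stood more than 10 times above the highest db/db library, and db/db replicate 3, with 2 counts, was below the level of 3 counts taken as the detection floor (1.33 CPM in that library). The mean was 86.1 ± 9.95 CPM in WT and 3.35 ± 2.0 CPM in db/db (SD, n = 4 each), 24.5-fold lower on the fitted scale (log2 fold change −4.61, SE 0.27). Of the 9264 genes that passed the filter on low counts, 2 had a more negative log2 fold change. In whole tissue, fewer cells of a type and less RNA per cell cannot be told apart, here and in the values that follow. Aspg (ENSMUSG00000037686, chromosome 12, 112106679 to 112127559, mm10) spans 2 microRNA genes that do not touch its exons.

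**Figure D1:**
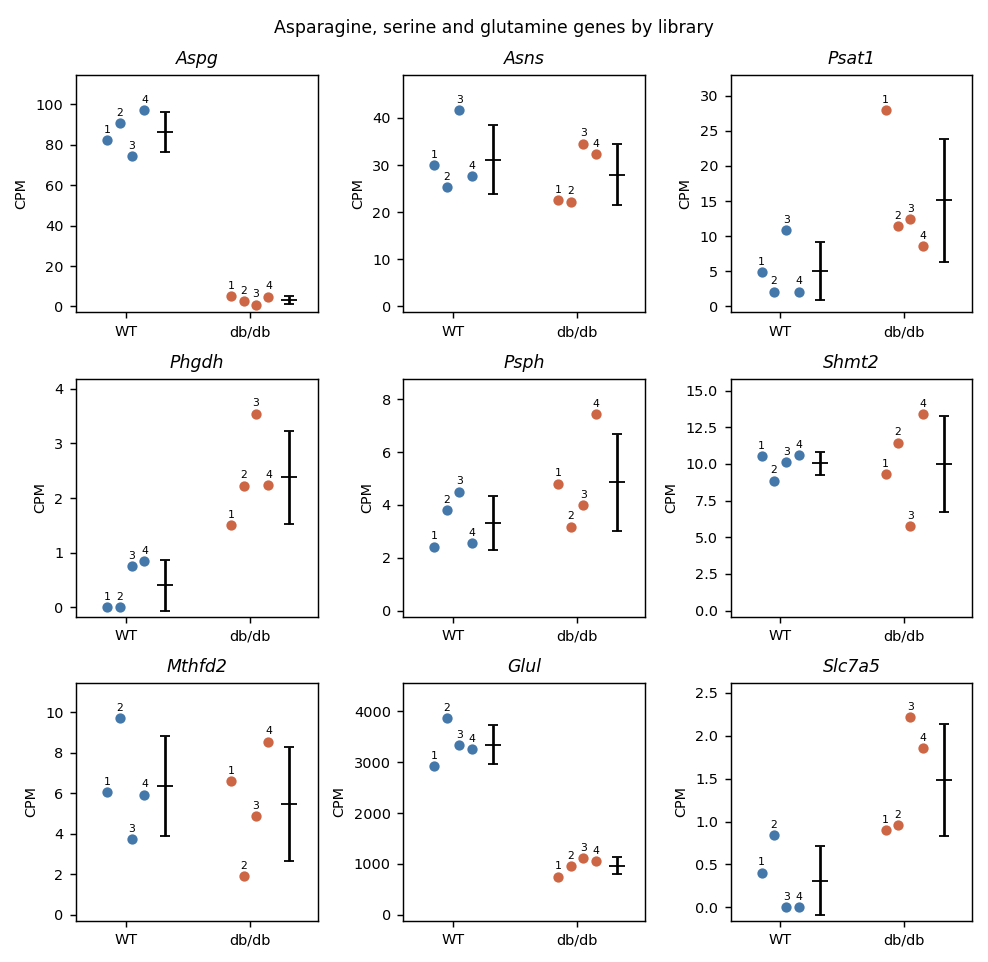
Level of each of the 9 genes in CPM (linear axes, each panel with its own range) in the 4 WT (blue) and 4 db/db (orange) libraries, with replicate numbers at the points and mean ± SD as black bars. Aspg and Glul are low in all 4 db/db libraries, Psat1 is highest in db/db replicate 1 at 28.0 CPM, and the points of Asns, Shmt2 and Mthfd2 overlap between the genotypes.

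Asns encodes the enzyme that works in the opposite direction, and its level differed little between the genotypes. It was 29.9, 25.3, 41.7 and 27.6 CPM in WT and 22.6, 22.3, 34.6 and 32.4 CPM in db/db replicates 1 to 4. The groups overlapped over most of their range. The mean was 31.1 ± 7.29 CPM in WT and 27.9 ± 6.45 CPM in db/db (SD, n = 4 each), a log2 fold change of −0.17 (SE 0.21). Asns (ENSMUSG00000029752) lies on chromosome 6 from 7675169 to 7693254. The genes whose profile over the 8 libraries was most like that of Asns, by the root mean square difference of centred log2 CPM, were Lrrc61 at 0.11, Zswim8 at 0.12 and Alg1 at 0.12. Those most like Aspg were Gm32468 at 0.85, Gm35986 at 0.93 and Cyp2e1 at 1.01. Among these, Lrrc61 and Alg1 overlap a gene on the other strand and Gm35986 is annotated as antisense, so their counts are uncertain. Gm32468 had 0 counts in all 4 db/db libraries and 4.88 to 10.5 CPM in WT. Cyp2e1, a cytochrome P450 gene, was at 42.6 to 305.1 CPM in WT and 1.49 to 5.41 CPM in db/db.

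The serine synthesis genes were low in BAT, and 2 of the 3 did not pass the filter. Phgdh, whose product catalyses the first and committing step, had 0, 0, 2 and 2 counts in WT and 5, 7, 8 and 6 counts in db/db replicates 1 to 4. Every db/db library was above every WT library, but on single-digit counts. Its level was 0.40 ± 0.464 CPM in WT against 2.38 ± 0.851 CPM in db/db libraries (SD, n = 4 each), and the ratio of summed counts was 5.61 (exact 95% interval 1.95 to 22.1, counting error only). Phgdh (ENSMUSG00000053398, chromosome 3, 98313170 to 98339990) also has an annotated processed pseudogene, Phgdh-ps1, so its counts are uncertain.

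Psat1, the aminotransferase of the middle step, was at 4.86, 2.11, 10.9 and 2.12 CPM in WT and 28.0, 11.5, 12.4 and 8.56 CPM in db/db replicates 1 to 4. The groups overlapped, since WT replicate 3 was above db/db replicate 4, and db/db replicate 1 was far above the other libraries. The mean was 5.0 ± 4.14 CPM in WT and 15.1 ± 8.74 CPM in db/db (SD, n = 4 each), a log2 fold change of 1.58 (SE 0.47). The log2 fold change was 1.07 (SE 0.45) without db/db replicate 1 and 2.29 (SE 0.48) without WT replicate 3, the highest WT library. The library of db/db replicate 1 also held the most skeletal muscle transcript: all 14 muscle markers were higher in db/db, their summed level was 459 to 1625 CPM in WT and 2429 to 12158 CPM in db/db with the highest sum in replicate 1, and none of the 14 was at 0 in all libraries. A muscle score, the mean of the markers' log2 CPM after each was centred and scaled to unit SD over the 8 libraries, was −1.31 to −0.14 in WT and 0.02 to 1.65 in db/db libraries, so that it did not overlap between the genotypes. With this score as a covariate the log2 fold change of Psat1 was 0.55 (SE 0.76). The part of muscle in the Psat1 difference was not tested otherwise. Psat1 (ENSMUSG00000024640) lies on chromosome 19 from 15904678 to 15947337.

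Psph, the phosphatase of the last step, had 6 to 12 counts in WT and 9 to 20 in db/db. This amounted to 3.32 ± 1.01 and 4.86 ± 1.85 CPM (SD, n = 4 each) with overlapping groups, and the ratio of summed counts was 1.44 (exact 95% interval 0.919 to 2.29, counting error only). Psph (ENSMUSG00000029446, chromosome 5, 129765558 to 129787449) shares 452 exonic bases with a transcript of Cct6a on the other strand and is uncertain for that reason.

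The mitochondrial enzymes that take up the serine carbon had means that were close in both genotypes. Shmt2 was at 10.5, 8.86, 10.1 and 10.6 CPM in WT and 9.33, 11.5, 5.76 and 13.4 CPM in db/db replicates 1 to 4. The db/db libraries lay on both sides of the WT libraries and were more spread, with a coefficient of variation of 32.7% against 8.05%. The log2 fold change was 0.0032 (SE 0.28). Mthfd2, a folate dehydrogenase and cyclohydrolase that is abundant in dividing cells, was at 6.07, 9.71, 3.76 and 5.94 CPM in WT and 6.62, 1.91, 4.88 and 8.56 CPM in db/db. These ranges overlapped almost entirely (log2 fold change −0.21, SE 0.43). Shmt2 (ENSMUSG00000025403, chromosome 10, 127517123 to 127522444) shares 32 exonic bases with Ndufa4l2 on the other strand, and Mthfd2 (ENSMUSG00000005667) lies on chromosome 6 from 83305691 to 83325908. With 13 to 36 counts of Shmt2 and 6 to 23 counts of Mthfd2 per library, small differences were not detectable at this depth.

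Glul encodes glutamine synthetase. Its level was 2918, 3864, 3341 and 3266 CPM in WT and 751.8, 958.9, 1117 and 1053 CPM in db/db replicates 1 to 4. Every db/db library was far below every WT library, and within each genotype the libraries were close, with a coefficient of variation of 11.7% in WT and 16.4% in db/db. The mean was 3347 ± 391 CPM in WT and 970.1 ± 159 CPM in db/db (SD, n = 4 each), 3.45-fold lower (log2 fold change −1.79, SE 0.15), with counts of 2499 to 9156 per library. Of the genes tested, 48 had a more negative log2 fold change. The value was −1.69 without db/db replicate 1 and −1.62 with the muscle score as a covariate. Glul (ENSMUSG00000026473, chromosome 1, 153899944 to 153909723) shares 116 exonic bases with Teddm2 on the other strand and 93 with a microRNA gene, and is uncertain to that extent.

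Slc7a5, the light chain of the LAT1 transporter that brings in leucine and other large neutral amino acids in exchange for glutamine, had 1, 2, 0 and 0 counts in WT and 3, 3, 5 and 5 counts in db/db replicates 1 to 4. All libraries were near the detection floor. The ratio of summed counts was 4.61 (exact 95% interval 1.32 to 24.7, counting error only). Slc7a5 (ENSMUSG00000040010) lies on chromosome 8 from 121881150 to 121907694.

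Of the 9 genes, 6 passed the filter on low counts. In the fit over all genes 3 of them had an adjusted p under 0.05, Aspg and Glul lower and Psat1 higher in db/db, where 27.7% of all genes tested had one, 15.8% higher and 11.9% lower. Without WT replicate 2, WT replicate 4 or db/db replicate 1 the count was 2, since Psat1 was not among them. The groups did not overlap in 2 of the 6, Aspg and Glul, against 28.1% of all genes tested, 15.3% with db/db higher and 12.7% with db/db lower, and they did not overlap either in Phgdh and Slc7a5, which are outside that base because they did not pass the filter. The genes were listed with this contrast known, so these counts are no test of them and nothing is read from them. The members also did not rank the libraries alike: WT replicate 3 was the highest WT library for Asns, Psat1 and Psph and the lowest for Aspg and Mthfd2, and db/db replicate 1 was the highest db/db library for Aspg and Psat1 and the lowest for Glul, Phgdh and Slc7a5.

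To see whether neighbouring steps moved, 151 other genes of amino acid metabolism were listed in 7 groups by function, of which 111 passed the filter. Among them, 15 genes were higher and 20 were lower at an adjusted p of 0.05, or 31.5% of those tested, close to the 27.7% of all genes. Their median log2 fold change was −0.06, where that of all genes tested was 0.01. By group the share called was 50% for asparagine and aspartate, 44.4% for serine and glycine, 18.8% for folate one-carbon and 35.3% for glutamine and glutamate. It was 42.9% for transporters, 34.8% for stress genes and 10% for tRNA synthetases, on 9 to 23 tested genes per group. With the muscle score as a covariate 8 of the 111 were called, 4 higher and 4 lower, and 574 genes of the whole data set. The score separates the genotypes, SEs of most named genes were wider in that fit, and several genes that were no longer called had much the same log2 fold change, such as Sfxn3 at 2.15 without and 2.24 with the covariate, Shmt1 at −1.27 and −1.22, Ctps at 1.52 and 1.77 and Adss at −0.73 and −0.77. Among the genes named next, Slc25a32, Slc19a1, Aldh4a1, Slc1a3, Slc1a5 and Herpud1 were called in both fits.

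**Figure D2:**
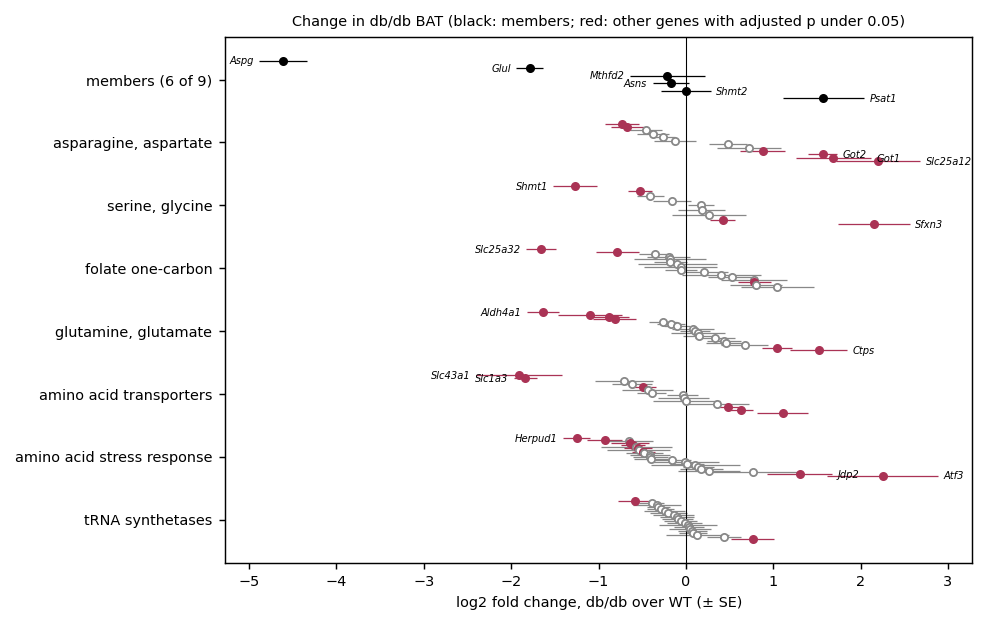
Log2 fold change of db/db over WT with its SE for the 6 members and the 111 other genes that passed the filter, by functional group. Black points are members, red points are other genes with an adjusted p under 0.05 and open grey points are the rest. Aspg stands farthest from 0 at −4.61, and the tRNA synthetases lie between −0.58 and 0.77.

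In the asparagine and aspartate group, 4 of 12 tested genes were higher and 2 lower in db/db, with a median log2 fold change of 0.18. Asrgl1, which encodes another asparaginase, was at 17.8 ± 4.76 CPM in WT and 16.3 ± 2.90 CPM in db/db (SD, n = 4 each), a log2 fold change of −0.12 (SE 0.24 and adjusted p 0.748 in edgeR). Those that were higher encode both aspartate aminotransferases, a mitochondrial aspartate-glutamate carrier and an enzyme that adds aspartate to inosine monophosphate. Slc25a12, the carrier, was at 2.02, 10.1, 4.13 and 12.3 CPM in WT and 69.2, 17.5, 25.7 and 16.7 CPM in db/db replicates 1 to 4 (log2 fold change 2.20 with SE 0.48 and adjusted p 0.00234 in edgeR). Its highest value was in the library richest in muscle transcript. With the muscle score as a covariate its log2 fold change was −0.11 (adjusted p 0.931 in edgeR). Got1, the cytosolic aminotransferase, had a log2 fold change of 1.69 (SE 0.43 and adjusted p 0.00666 in edgeR), and −0.15 with the covariate (adjusted p 0.910 in edgeR). The score separates the genotypes, so muscle and genotype cannot be told apart in that fit, and the part of muscle was not tested. Without db/db replicate 1 the log2 fold changes were 1.48 for Slc25a12 and 1.15 for Got1 (adjusted p 0.00843 and 0.0343 in edgeR). Got2, the mitochondrial enzyme, chosen after its values were seen, was at 23.3 to 31.4 CPM in WT and 70.0 to 90.0 CPM in db/db and rose by 1.57 on the log2 scale (SE 0.16 and adjusted p 1.93e-06 in edgeR), with a noncoding gene overlapping it on the other strand. The fourth was Adssl1, the muscle form of adenylosuccinate synthase, also chosen after its values were seen (log2 fold change 0.88, adjusted p 0.0161 in edgeR). The non-muscle form Adss fell by 0.73 and the omega-amidase gene Nit2 by 0.67 on the log2 scale (adjusted p 0.00886 and 0.0137 in edgeR). Nit2 overlaps Tomm70a on the other strand and is uncertain.

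In the serine and glycine group, 2 of 9 tested genes were higher and 2 lower. Shmt1, the cytosolic counterpart of Shmt2, was at 22.7, 29.5, 27.4 and 40.3 CPM in WT and 7.52, 12.4, 15.1 and 15.3 CPM in db/db replicates 1 to 4. The genotypes did not overlap, and the gene fell by 1.27 on the log2 scale (SE 0.25 and adjusted p 0.000929 in edgeR). It overlaps Smcr8 on the other strand and is uncertain. Sfxn1, which carries serine into mitochondria, was at 564.5 ± 55.6 CPM in WT and 392.7 ± 47.1 CPM in db/db (SD, n = 4 each) and fell by 0.52 (SE 0.13 and adjusted p 0.00669 in edgeR). The related gene Sfxn3 was higher, at 1.13 to 4.45 CPM in WT and 8.91 to 12.0 CPM in db/db (log2 fold change 2.15 with SE 0.41 and adjusted p 0.000704 in edgeR). Gcsh, of the glycine cleavage system, had a log2 fold change of 0.42 (adjusted p 0.0326 in edgeR), which was not past the threshold without any of WT replicates 2, 3 and 4 and db/db replicates 3 and 4 (adjusted p 0.0601 to 0.124).

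In the folate one-carbon group, 1 of 16 tested genes was higher and 2 were lower, and the 2 folate carriers called moved in opposite directions. Slc25a32, which brings folate into mitochondria, was at 83.0, 100.9, 79.3 and 101.4 CPM in WT and 25.0, 29.6, 38.1 and 23.4 CPM in db/db replicates 1 to 4. Every db/db library was less than 1 in 2 of every WT library, and the gene was 3.15-fold lower (log2 fold change −1.66 with SE 0.17 and adjusted p 2.09e-06 in edgeR). Slc19a1, the reduced folate carrier of the cell membrane, rose by 0.78 (SE 0.19 and adjusted p 0.00473 in edgeR). Aldh1l1, which oxidises formyl-folate in the cytosol, fell by 0.78 (adjusted p 0.0239 in edgeR), but it did not pass without WT replicate 3, db/db replicate 2 or db/db replicate 4 (adjusted p 0.0613 to 0.0834), and it overlaps 2 noncoding genes in its exons. Mthfd1, the cytosolic trifunctional folate enzyme, was at 9.84 ± 3.14 and 11.3 ± 2.12 CPM (SD, n = 4 each), a log2 fold change of 0.20 (SE 0.28 and adjusted p 0.643 in edgeR), and shares exonic bases with a noncoding gene on the other strand, which makes it uncertain.

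**Figure D3:**
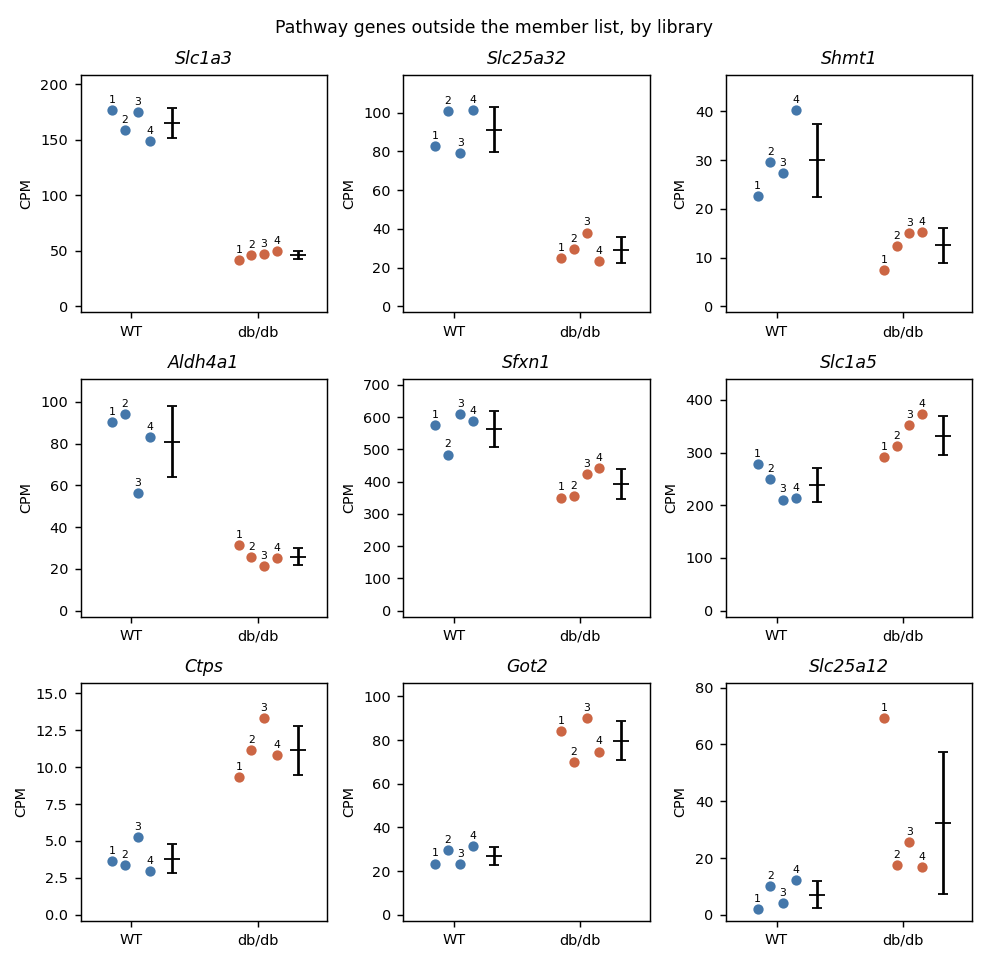
Level in CPM (linear axes) of 9 genes of neighbouring steps in the 4 WT (blue) and 4 db/db (orange) libraries, with replicate numbers at the points and mean ± SD as black bars. Slc1a3, Slc25a32, Shmt1, Aldh4a1 and Sfxn1 are lower in all 4 db/db libraries, the others are higher, and Slc25a12 is highest in db/db replicate 1.

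In the glutamine and glutamate group, 2 of 17 tested genes were higher and 4 lower. Glud1, glutamate dehydrogenase, was at 184.3 ± 25.3 CPM in WT and 172.5 ± 29.3 CPM in db/db (SD, n = 4 each, log2 fold change −0.10 with SE 0.15 and adjusted p 0.670 in edgeR). Genes of the route between proline and glutamate were among those called. Aldh4a1, the last enzyme of proline breakdown, was at 90.2, 94.1, 56.4 and 83.2 CPM in WT and 31.3, 25.8, 21.3 and 25.3 CPM in db/db replicates 1 to 4, and fell by 1.63 on the log2 scale (SE 0.18 and adjusted p 4.91e-06 in edgeR). It shares 1595 exonic bases with Gm21969 on the same strand and is uncertain. Prodh, the first enzyme of that breakdown, and Pycrl, a cytosolic proline synthesis gene, both chosen after their values were seen, fell by 0.82 and 0.89. Ctps, CTP synthase, which uses glutamine nitrogen, rose by 1.52 (SE 0.32 and adjusted p 0.00179 in edgeR). Ppat, the glutamine-using enzyme that opens purine synthesis, had a log2 fold change of −1.10 (adjusted p 0.0318 in edgeR), which was not past the threshold without any of WT replicates 2, 3 and 4 and db/db replicates 1 and 2 (adjusted p 0.0566 to 0.0894), and it overlaps Paics.

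Among the amino acid transporters, 3 of 14 tested genes were higher and 3 lower. Slc1a3, which takes up glutamate and aspartate, was at 176.8, 158.7, 175.1 and 149.0 CPM in WT and 41.8, 46.1, 47.0 and 49.8 CPM in db/db replicates 1 to 4. The libraries of each genotype were close together and the genotypes far apart (3.57-fold lower, log2 fold change −1.84 with SE 0.13 and adjusted p 3.39e-08 in edgeR). Slc1a5, the neutral amino acid exchanger that imports glutamine, was at 210.8 to 277.6 CPM in WT and 291.2 to 373.1 CPM in db/db (log2 fold change 0.48 with SE 0.14 and adjusted p 0.0139 in edgeR), but it was not past the threshold without WT replicate 3 or WT replicate 4 (adjusted p 0.0569 and 0.0626). Slc3a2, the heavy chain that pairs with Slc7a5, was at 49.5 ± 9.40 and 48.3 ± 8.01 CPM (SD, n = 4 each), a log2 fold change of −0.04 (SE 0.18 and adjusted p 0.903 in edgeR). Slc38a2, a glutamine and neutral amino acid carrier of the same stress response, had a log2 fold change of −0.39 (SE 0.17 and adjusted p 0.0892 in edgeR). The leucine-carrying uniporter gene Slc43a2 rose by 1.11 and Slc38a10 by 0.63, and the taurine transporter gene Slc6a6 had a log2 fold change of −0.49 (adjusted p 0.00854, 0.0027 and 0.0232 in edgeR). Slc6a6 was not past the threshold without WT replicate 3, db/db replicate 3 or db/db replicate 4 (adjusted p 0.0626 to 0.0653), and all 3 of these genes overlap noncoding genes. Slc43a1, chosen after its values were seen, fell by 1.91 on 1.56 CPM in db/db.

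Of the amino acid and endoplasmic reticulum stress genes, 2 of 23 tested were higher and 6 lower in db/db, with a median log2 fold change of −0.41. The list also held 3 genes that did not pass the filter, given here after their values were seen. Stc2 had 0 counts in all WT libraries and 10, 4, 9 and 5 in db/db replicates 1 to 4. Gdf15 had 0, 2, 0 and 0 counts in WT and 9, 10, 5 and 17 in db/db. Fgf21 had 1 count, in db/db replicate 4. Atf4 itself was at 153.4, 173.5, 165.0 and 237.7 CPM in WT and 131.5, 133.9, 73.1 and 184.1 CPM in db/db replicates 1 to 4. The groups overlapped, and the difference did not pass (log2 fold change −0.48 with SE 0.21 and adjusted p 0.103 in edgeR). It did pass without db/db replicate 4, at a log2 fold change of −0.69 (adjusted p 0.0192 in edgeR), and in the fit of all genes with at least 1 count, at −0.52 (adjusted p 0.00632 in edgeR). The fit with a replicate block, given further below, also called Atf4, although replicate numbers mark different animals. Trib3, an ATF4 target that dampens the response, was at 29.7 ± 6.68 CPM in WT and 22.4 ± 2.0 CPM in db/db (SD, n = 4 each), a log2 fold change of −0.41 (adjusted p 0.142 in edgeR), and among the alternatives run it passed only without WT replicate 4 (adjusted p 0.0417). Ddit3, which encodes CHOP, had a log2 fold change of −0.16 (SE 0.22 and adjusted p 0.636 in edgeR) and shares exonic bases with Mars and with a second entry of its own name, so it is uncertain.

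Herpud1, which serves the degradation of misfolded proteins of the endoplasmic reticulum, was at 151.4, 198.8, 128.1 and 143.0 CPM in WT and 57.5, 74.1, 59.8 and 69.2 CPM in db/db replicates 1 to 4. The genotypes were well apart (log2 fold change −1.25 with SE 0.16 and adjusted p 1.32e-05 in edgeR). Ppp1r15b, a regulatory subunit of the phosphatase that reverses the eIF2α phosphorylation of the stress response, fell by 0.93 (SE 0.20 and adjusted p 0.00204 in edgeR), with a noncoding gene overlapping it on the other strand. The other 4 that fell, chosen after their values were seen, were Eif4ebp1, Cebpg, Vldlr and Eif2s1, by 0.61, 0.64, 0.49 and 0.55 on the log2 scale, and Cebpg is uncertain because noncoding genes overlap its exons. Atf3, an early stress-induced transcription factor, was at 0, 3.38, 2.25 and 4.67 CPM in WT and 10.2, 10.5, 2.22 and 26.0 CPM in db/db replicates 1 to 4 (log2 fold change 2.25 with SE 0.64 and adjusted p 0.0136 in edgeR). It was not past the threshold without db/db replicate 4 (adjusted p 0.0760), with DESeq2 (adjusted p 0.0788) or with limma-voom (adjusted p 0.0636). Jdp2, a related repressor, had a log2 fold change of 1.30 (adjusted p 0.0146 in edgeR), and did not pass without db/db replicate 3 (adjusted p 0.0519). It overlaps a noncoding gene and is uncertain.

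The aminoacyl-tRNA synthetases, which load amino acids onto tRNA, were nearly level between the genotypes: 1 of 20 was higher, 1 lower, and the median log2 fold change was −0.08. Nars, which loads asparagine, was at 58.9 ± 8.29 CPM in WT and 62.4 ± 9.21 CPM in db/db (SD, n = 4 each), a log2 fold change of 0.08 (SE 0.16 and adjusted p 0.741 in edgeR). Wars, for tryptophan, had a log2 fold change of 0.77 (adjusted p 0.0264 in edgeR) and was not past the threshold without any of WT replicates 1, 3 and 4 and db/db replicates 1 and 4 (adjusted p 0.0613 to 0.0746). Dars, for aspartate, had one of −0.58 (adjusted p 0.0340 in edgeR) and was not past it without any of WT replicates 1, 2 and 3 and db/db replicates 1 and 4 (adjusted p 0.0554 to 0.0928).

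Marker transcripts of several cell types differed between the genotypes along with the genes above, which does not separate cell number from RNA per cell. Of all genes tested, 27.7% were called, 15.8% higher and 11.9% lower in db/db. Of 11 tested macrophage markers 9 were higher in db/db, with a summed level of 162.1 to 221.0 CPM in WT and 752.7 to 1333 CPM in db/db. Of 8 fibroblast markers 7 were higher, with sums of 666.4 to 822.2 and 1304 to 2809 CPM. Of 8 tested brown adipocyte markers 6 were lower, with sums of 8994 to 10675 CPM in WT and 3818 to 6857 CPM in db/db. Of 7 endothelial markers 2 were lower and 5 were not called, with sums of 379.5 to 439.9 and 281.6 to 332.1 CPM. The share of endothelial markers called, 28.6%, was near that of all genes tested. No marker of these lists was at 0 in all libraries. Of 8 hepatocyte markers none passed the filter and 5 were at 0 in all 8 libraries, with sums of at most 3.91 CPM, and none of 7 lymphocyte markers passed, with sums of at most 14.1 CPM. Relative to the WT mean, the brown adipocyte sum in the db/db libraries was 0.394 to 0.708, where Glul was 0.225 to 0.334 and Aspg 0.0103 to 0.0594. The part of cell content in the differences of the members was not tested.

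**Figure D4:**
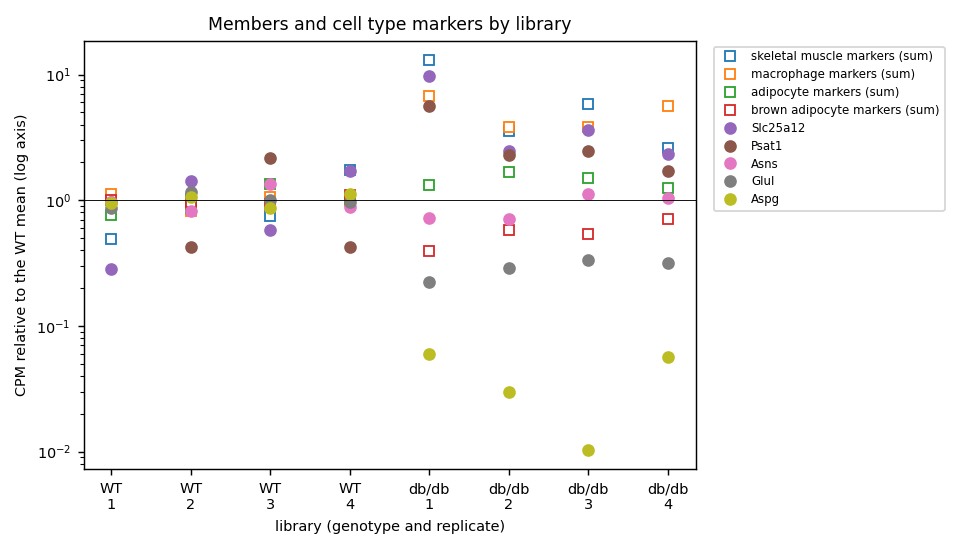
Summed level of marker lists and level of selected members and Slc25a12 in each library, relative to the WT mean (log axis), for the 4 WT libraries on the left and the 4 db/db libraries on the right. Open squares are sums over marker lists, filled circles are single genes, and the line marks the WT mean. Muscle transcript reaches 13.0 in db/db replicate 1, brown adipocyte transcript is at most 0.708 in db/db, and Aspg and Glul lie lower still.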

How the data were processed

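Bulk mRNA libraries of BAT from 4 WT and 4 db/db mice were compared. Per the study's methods, reads were single-end, trimmed with bbduk, aligned to mm10 with STAR and counted per gene with HTSeq-count, while the submitters' processing notes name Trimmomatic, HISAT2 and DESeq2. The authors deposited raw counts and normalized values on a log2 scale. The latter were checked to be log2 of the count times a constant per library plus 1 and were not used for tests. Collapse of molecular identifiers, strand use and treatment of multiply aligned reads are not given in the sources used here, so PCR copies may be included, and genes that overlap others in their exons are given as uncertain.

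GENCODE M21 held 31011 of the 31053 Ensembl identifiers. Total counts were 2374079 to 2615009 in WT and 2382722 to 3240074 in db/db, and the floor of 3 counts was 0.902 to 1.33 CPM. Genes were filtered with filterByExpr (minimum count 10, minimum total 15), scaled by TMM and tested in edgeR 4.0.16 (R 4.3.3) by its quasi-likelihood F test with Benjamini-Hochberg adjustment at 0.05 over 9264 genes. SEs were derived from the F statistic. CPM values are scaled by TMM and the filtered totals. Intervals and floors cover counting error only, and p-values measure the spread between these 8 samples.

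The members and gene lists were chosen with earlier results of these data known. Besides the members, a fixed set of 12 pathway genes was named whatever they showed, with the 2 called genes of at least 5 CPM that rose and fell most in each list, and the 3 genes most like Aspg and Asns. Some genes that this rule names are not reported here. Alternatives were DESeq2 1.42.0, limma-voom (limma 3.58.1), other scalings and filters, a replicate block, a muscle score as covariate and leaving out each library.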

Additional observations from a re-analysis of the deposited data

Results flagged for a closer look

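A library was singled out where its gap to the nearest of the other 3 libraries of its genotype was unusually large for 4 values (Dixon's criterion). This was met in 4 of 90 groups, where chance gives about 4.5. Got1, the cytosolic aspartate aminotransferase gene, was at 41.2 CPM in db/db replicate 1 and at 12.6 to 16.9 CPM in the other db/db libraries. Nars, which loads asparagine onto its tRNA, was at 76.1 CPM in db/db replicate 1 and at 56.5 to 59.0 CPM in the others. Aldh1l1, of cytosolic folate metabolism, was at 27.4 CPM in WT replicate 3 and at 18.6 to 18.7 CPM in the other WT libraries. Wars, the tryptophanyl-tRNA synthetase gene, was at 10.6 CPM in WT replicate 2 and at 8.09 to 8.49 CPM in the others.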

How the results depend on the processing

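Over the alternatives that gave a value, the log2 fold change was −4.96 to −4.36 for Aspg and −1.87 to −1.62 for Glul. With a muscle score as covariate, 574 genes differed (426 higher, 148 lower), of the members 0 were higher, and of the pathway genes 8 were called (4 higher, 4 lower). Slc25a12 then had a log2 fold change of −0.11 and Got1 of −0.15 (adjusted p 0.931 and 0.910 in edgeR). Of the 26 named pathway genes called without the covariate, 19 were no longer called, Slc25a12 and Got1 included. With at least 10 counts in every library 2018 genes differed, and 1 member was called (0 higher, 1 lower), since Aspg and Psat1 were then not tested. Leaving out 1 library gave 2236 to 2483 genes (1281 to 1435 higher, 889 to 1056 lower), 2 to 3 members (0 to 1 higher, 2 lower) and 32 to 38 pathway genes (13 to 16 higher, 17 to 22 lower). Leaving out 1 library moved the log2 fold change of Psat1 over 1.07 (without db/db replicate 1) to 2.29 (without WT replicate 3). The replicate numbers mark different animals, and same-numbered libraries did not deviate together (mean r −0.00111). The fit with the replicate block called 2557 genes, 3 members and 36 pathway genes. Atf4 was past the threshold in the block fit (adjusted p 0.0259). DESeq2 called 2527 genes. The cause of these changes was not tested. Depth limits Phgdh, Psph and Slc7a5, which had at most 20 counts in any library.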
